A study of Pisaster ochraceus with 50 samples.

Results

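The 9 libraries described here are RNA sequencing libraries of the pyloric caecum of the ochre sea star Pisaster ochraceus, 3 from orange animals and 6 from brown animals, out of 50 libraries and 18 animals in the whole series. They were chosen by their labels: pyloric caecum, asymptomatic, not feeding, collected at McClures Beach and of size class medium, large or x-large. Small animals were left out because all of them were orange. The study sampled dermis, tube feet and pyloric caecum to compare tissues, size classes and animals with and without sea star wasting disease, and colour was recorded as a label. Each library came from a different animal, so the replicates are animals. The orange animals were 1 medium animal (orange 1, batch 4) and a pair of x-large animals (orange 2, batch 4, and orange 3, batch 1). The brown animals were a medium pair (brown 1 and brown 2, batch 3), 3 large animals (brown 3, batch 4; brown 4, batch 2; brown 5, batch 3) and 1 x-large animal (brown 6, batch 4). Batch 4 alone held both colours, with orange 1 and orange 2 against brown 3 and brown 6, and the large class held brown animals only. The labels do not say what a batch is. Colour is a field label and not a treatment, and nothing in the labels gives the animals' age, sex, diet or genotype.

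The pyloric caeca are the paired digestive glands that run along each arm of a sea star. They make digestive enzymes, take up nutrients and store reserves. Pisaster ochraceus is polymorphic in colour, and orange, brown and purple animals live on the same shores. The colour is that of the body wall, in which carotenoid pigments are known to lie, and sea stars take up carotenoids with their food. The comparison asked which genes of the digestive gland differ in level between orange and brown animals. The deposited files give gene IDs without names, so no function, position or sequence is stated for any gene.

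The libraries matched their tissue label. Genes of a 100-gene caecum list, chosen on libraries of other animals, held 15.5% to 25.0% of the gene reads in the 9 caecum libraries and 0.0376% to 0.169% in the tube feet and dermis of the same animals. Gene reads per caecum library ranged from 721096 to 1003306, so that 1 read was worth about 1 CPM (the reads of a gene relative to all gene reads of its library). Between 71.0% and 78.5% of the counted reads fell outside annotated genes. For 10 measures of library quality and composition, the exact two-sided permutation test over the 84 assignments of 3 among 9 libraries gave an unadjusted p of 0.238 to 0.988 (adjusted p = 0.988 for each). The smallest p it allows is 0.0119, so after adjustment over 10 measures a single fully separated measure could not have passed 0.05. These were the gene reads, the shares outside genes and in ambiguous positions, the genes with a read, the shares of the most abundant gene and of the 10 most abundant genes, and the shares of 4 gene lists. The tube feet list held 0.0140% to 0.0214% of reads in orange and 0.00915% to 0.0218% in brown caecum, and the dermis list 0.00713% to 0.0146% and 0.00638% to 0.0174%. In these bulk samples, fewer cells of a type and less RNA per cell cannot be told apart.

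Colour did not separate the caecum libraries on the leading components. On the leading principal component, which held 23.3% of the variance, the orange libraries scored 47.4, 28.1 and -37.8, and the brown libraries spanned -48.3 to 37.8. The libraries orange 3, brown 1, brown 4 and brown 6, with negative scores, had 71.0% to 72.7% of reads outside genes, and the other 5 had 74.3% to 78.5%. Those with negative scores also had the most gene reads, at 964507 to 1003306, against 721096 to 905398 in the other 5. The next component (15.7%) set brown 3 apart at -66.8, and that library also had the fewest genes with a read, 11679 against 12702 to 13522 in the others. On component 3 (13.9%) the orange libraries scored 1.15, 45.5 and 23.5 and the brown ones -38.5 to 28.6. Orange 2 had the highest score of the 9 libraries there, and the other orange libraries lay inside the brown range. The median rank correlation of gene levels was 0.754 among the 3 pairs of orange libraries, 0.760 among the 15 pairs of brown libraries and 0.750 among the 18 mixed pairs, a description across genes that share the libraries.

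**Figure D1:**
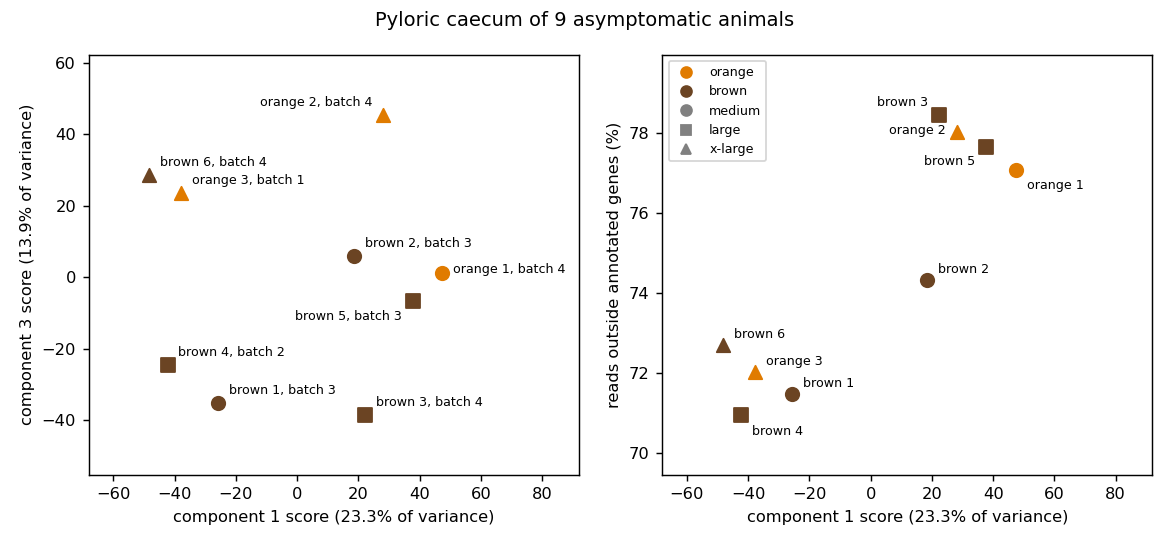
Principal component scores of the 9 caecum libraries on components 1 and 3 (left), and component 1 against the percentage of reads outside annotated genes (right). Each point is 1 library, with marker colour for animal colour and marker shape for size class. Orange libraries lie at both ends of component 1, and the libraries with the lowest share outside genes (71.0% to 72.7%) have the negative scores.

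Few genes told orange from brown pyloric caecum at either threshold used. Of 13230 genes tested, none passed a false discovery rate of 0.01 (0%; edgeR quasi-likelihood test with Benjamini-Hochberg adjustment), and 552 had an unadjusted p under 0.05 (4.17%), 291 higher (2.2%) and 261 lower (1.97%) in orange. The DESeq2 Wald test called 1 gene at 0.01, g9720, and limma-voom called none. At a false discovery rate of 0.05, edgeR called 2 genes (0.0151%), g9720 and g20883, both higher in orange animals. At this weaker threshold the count was 0 with batch or with size class as a covariate and 0 without orange 3, brown 2 or brown 3. In batch 4 alone, 2 animals against 2, edgeR called 34 of 12984 genes tested at 0.01, 16 higher and 18 lower in orange. There 919 had an unadjusted edgeR p under 0.05. In that subset colour cannot be told apart from other differences between 4 single animals.

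**Figure D2:**
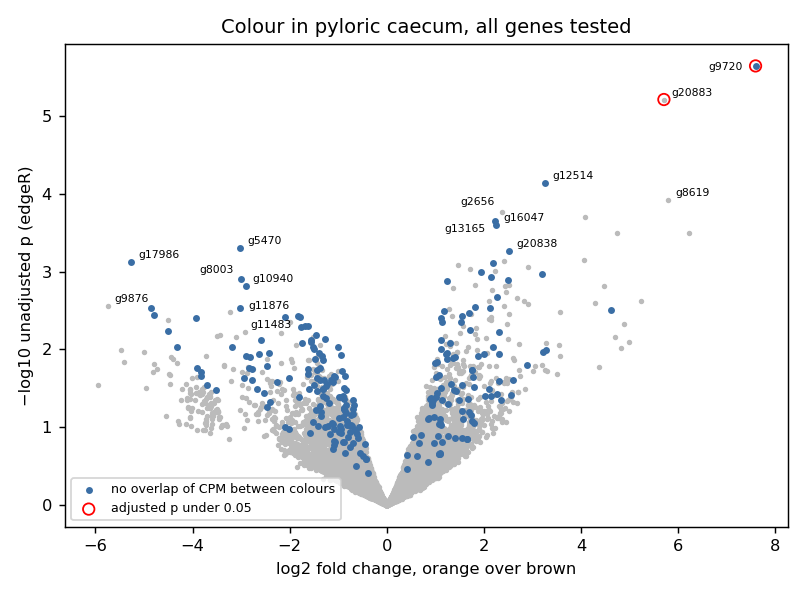
Log2 fold change, orange over brown (horizontal), against -log10 of the unadjusted edgeR p (vertical) for the 13230 genes tested in pyloric caecum. Red rings mark g9720 and g20883, the 2 genes with an adjusted p under 0.05, and blue points mark the 243 genes whose CPM did not overlap between the colours.

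The gene g9720 was read in orange and not in brown caecum. Its level was 38.4 CPM in orange 1, 5.38 in orange 2 and 38.2 in orange 3, from 28, 4 and 38 reads, and all 6 brown libraries had 0 reads. The groups did not overlap, and orange 2 lay well below the other orange animals. Against a floor of 3 reads over the brown group (0.564 CPM), g9720 was at least 48.5-fold higher in orange. The edgeR log2 fold change was 7.59 ± 0.97 (SE, adjusted p = 0.0298, higher in 3 of 3 orange animals), past the second threshold but not the first. The adjusted p ranged from 5.90e-06 by DESeq2 to 0.460 with batch as a covariate, and was 0.307 with size class as a covariate and 0.137 at a mean of at least 5 CPM. Without orange 1, orange 3, brown 2 or brown 3 it was 0.0540, 0.133, 0.0559 and 0.0521, and without orange 2 it was 0.00748. Within batch 4, g9720 stood at 38.4 and 5.38 CPM in the orange libraries and at 0 in both brown ones.

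The same difference of g9720 was seen in biopsies of other tissues of the same animals. In tube feet g9720 was at 36.1, 34.1 and 79.5 CPM in orange 1, 2 and 3, with 0 reads in the 5 brown libraries. This was at least 55.1-fold higher, with a log2 fold change of 8.07 ± 0.84 (edgeR adjusted p = 0.00226), the sole gene of 14955 tested that passed 0.01 for colour in tube feet (0.00669%). Its adjusted p there was 0.0411 with a stricter filter on low counts (filterByExpr). In dermis g9720 was at 7.37 and 19.3 CPM in orange 1 and orange 2, with 0 reads in 6 brown libraries, at least 11.2-fold higher (log2 fold change 5.28 ± 1.39, edgeR adjusted p = 0.921). Among all 21777 genes, g9720 was the only one with reads in each of the 8 orange libraries and in none of the 17 brown libraries of the 3 tissues, and no gene had the reverse pattern. The libraries of 1 animal are not independent of each other, so these are 9 animals and not 25.

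Brown animals outside the comparison did have reads of g9720. The feeding brown animals of McClures Beach, 1 x-large and 1 large, had 4.37 and 3.63 CPM in caecum and 32.3 and 19.4 CPM in tube feet. The symptomatic brown animal had 41.7 CPM of g9720 in caecum, 407 in dermis and 1.44 in tube feet. Small orange animals had 0, 0 and 2.07 CPM in caecum but 39.9 and 25.3 in tube feet, and the purple animal of Lifeboat House had 74.4 CPM in caecum. With the small and feeding animals included and size class and feeding as covariates, the colour difference of g9720 in caecum was 7.54 on the log2 scale (edgeR adjusted p = 0.188). The absence of g9720 reads thus held for the 6 brown animals compared, and not for brown animals of the series as a whole.

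**Figure D3:**
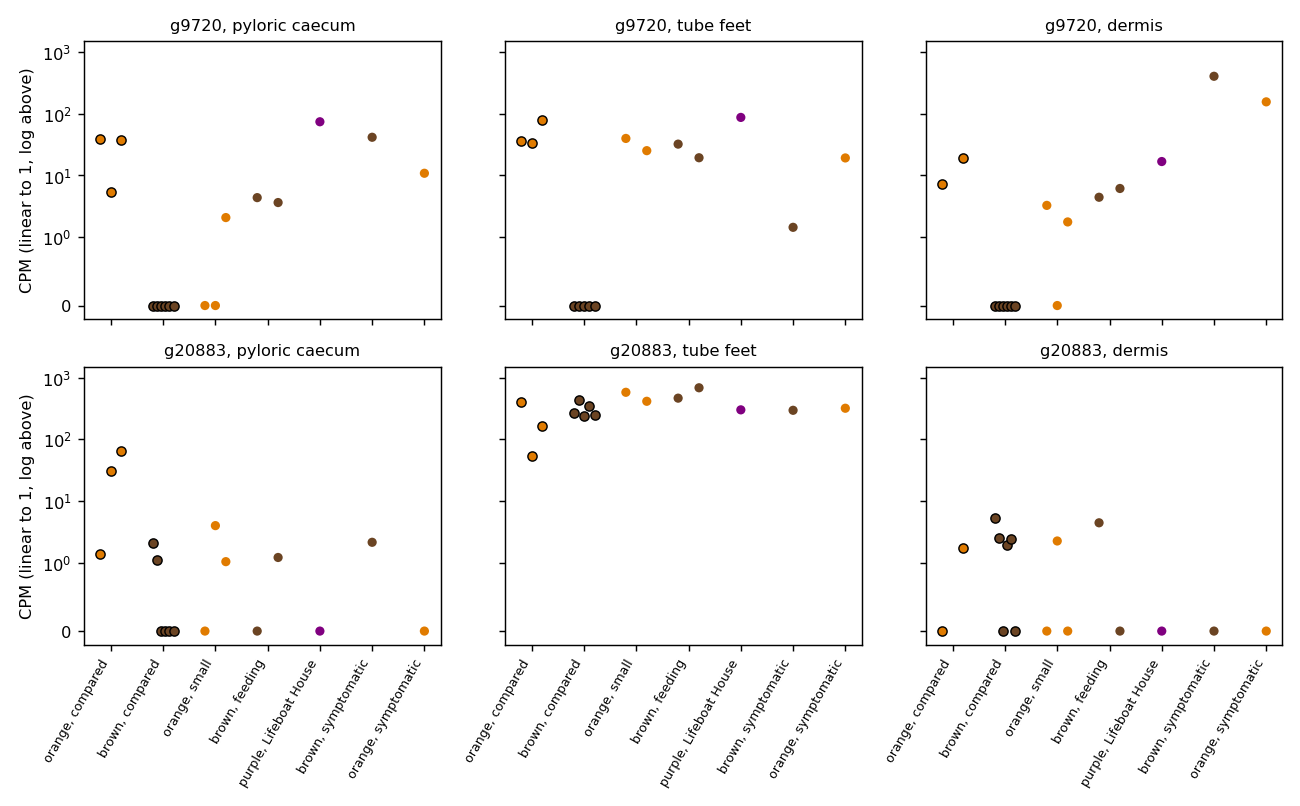
CPM of g9720 (top) and g20883 (bottom) in each library of caecum, tube feet and dermis, by group, on an axis that is linear to 1 and logarithmic above. Outlined points are the orange and brown animals compared. The brown points of g9720 lie at 0 in all 3 tissues, while feeding and symptomatic brown animals lie above 0. The level of g20883 is far higher in tube feet than in the other tissues.

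The gene g20883 was higher in 2 of the 3 orange caeca. It was at 1.37, 30.9 and 65.3 CPM in orange 1, 2 and 3, and at 0 in 4 brown libraries, 1.10 in brown 2 and 2.06 in brown 1. The medium animal orange 1 lay below brown 1, so the groups overlapped, and the pair of orange animals with the high values were x-large. The ratio of reads per depth, 89 reads of orange against 3 of brown, was 64.0 (95% interval 21.2 to 316, counting error only), and the edgeR log2 fold change was 5.71 ± 0.91 (SE, adjusted p = 0.0403). With size class as a covariate it was 3.35 (adjusted p = 0.997), and brown 6, the x-large brown animal, had 0 reads. Without orange 3 the adjusted p of g20883 was 0.475, without orange 2 it was 0.110, without any of brown 2 to brown 6 it lay between 0.0874 and 0.159, and without orange 1 it was 7.47e-04. By DESeq2 it was 0.522 and by limma-voom 0.991.

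Elsewhere g20883 was a gene of tube feet and belonged to the 100-gene tube feet list. In tube feet it stood at 409, 53.2 and 167 CPM in orange 1, 2 and 3 and at 242 to 432 CPM in brown animals, with a median of 267. The tube feet library of orange 2 was unlike the others of these animals, with 1.33% of gene reads in the tube feet list against 6.52% to 9.68%. In dermis g20883 did not exceed 5.35 CPM in the 8 libraries of these animals. Of the 100 tube feet genes, 31 were tested in caecum and 26 had no read in any of the 9 libraries, and the read share of the list in orange 2 and orange 3 caecum, 0.0140% and 0.0210%, lay inside the brown range. No gene tested passed 0.01, these 31 included, and the median log2 fold change of the 31 was -0.01 against -0.02 over all genes tested. The share of orange 3 was above that of 5 of the 6 brown libraries and below brown 5 (0.0218%), and the share of orange 2 was above that of 3. These shares include the reads of g20883 itself, at 30.9 CPM in orange 2 and 65.3 CPM in orange 3, so they are not independent of its level. Any part of tube feet tissue in the level of g20883 was not tested.

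The colour difference of g20883 differed between caecum and tube feet at the second threshold. The log2 colour difference in caecum minus that in tube feet was 6.34 ± 1.08 (SE, edgeR interaction, adjusted p = 0.0187), and with animal as a replicate block it was 6.25 (adjusted p = 0.00389). Without orange 3 it was 5.06 (adjusted p = 0.998) and without orange 2 it was 5.94 (0.196). It was the sole gene of 15042 at 0.05 (0.00665%), no gene passed 0.01 (0%), and 459 had an unadjusted p under 0.05 (3.05%). The next smallest p were those of g16047 (3.05 ± 0.76) and g17795 (6.87 ± 1.81), with edgeR adjusted p = 1.00 for both. The reads of g17795 were few: 6 in orange 3 caecum and 1 in brown 6 caecum, and in tube feet 12 over the 5 brown libraries and none in orange. The blocked fit called 2 genes at 0.01, g20883 and g8700. The level of g8700 in caecum was 1.37, 0 and 4.02 CPM in orange animals and 0 to 63.4 in brown animals (median 18.1). In tube feet orange 1, 2 and 3 stood at 42.1, 0 and 18.7 CPM and brown animals at 0 to 5.96. Orange 2 thus lay inside the brown range there. The difference of g8700 was -6.36 ± 1.72 without the block (adjusted p = 1.00) and -6.75 with it (adjusted p = 0.00389).

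Against dermis, no gene differed in its colour effect at 0.01 or 0.05 (0%; edgeR), and 926 had an unadjusted p under 0.05 (6.16%), 308 higher (2.05%) and 618 lower (4.11%) in caecum. Dermis had 2 orange libraries only. The genes with the smallest p, g20634, g9039 and g11634, had adjusted p = 0.350 each. The gene g20634 had mean levels of 15.3 CPM in orange and 25.9 in brown caecum, against 51.0 and 9.95 in dermis. In caecum its orange libraries, at 12.1 to 17.8 CPM, lay just below the brown ones, at 18.03 to 36.0. In animals with both tissues, a fit with animal as a replicate block called 1 gene at 0.01, g12820 (4.45 on the log2 scale, adjusted p = 7.34e-04). In caecum g12820 was at 1929, 237 and 480 CPM in orange 1, 2 and 3 and at 15.3 to 288 in brown animals (median 216), and small orange animals were higher still, at 2826 to 6862 CPM.

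Other genes had no overlap of CPM between the colours of the 9 animals but passed neither threshold. Over all genes tested, 243 had CPM values that did not overlap between the colours (1.84%), 102 higher in orange (0.771%) and 141 lower (1.07%). With 84 ways to pick 3 of 9 libraries, an assignment unrelated to level separates a fraction of about 0.0119 of genes in each direction. Neither share exceeded this, so the counts alone do not set the colours apart. Of the 102, 26 differed by more than 4-fold, and of the 141, 35 did. A choice of genes by a gap between the colours favours large fold changes, so these counts are no separate result. The genes named next are those with the smallest p values in each direction among the 243 that reached an average of 10 CPM or more in the higher colour. Their values are a description. The gene g17986, given after them, averaged 5.49 CPM in brown and was named for its small p alone.

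The gene g12514 was at 41.1, 21.5 and 87.4 CPM in orange 1, 2 and 3, and at 0 to 14.5 in brown animals with a median of 4.27. Its log2 fold change was 3.26 ± 0.64 (edgeR adjusted p = 0.316), and in batch 4 alone it was 2.51. Small orange animals had 0 to 2.07 CPM of g12514 and the purple animal 75.8, so the high level was not common to orange animals of all sizes. The gene g13165 was at 12.3, 14.8 and 15.1 CPM in orange and at 2.64 to 3.31 CPM in brown (median 3.04). Its log2 fold change was 2.23 ± 0.49 (edgeR adjusted p = 0.410), from 35 and 16 reads. With so few reads in each brown library, the narrow brown range cannot be read as a steady level. Small orange animals again lay low, at 0 to 2.66 CPM, and the feeding brown animals between the groups at 7.64 and 8.48.

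For g16047 the orange libraries held 87.7, 22.9 and 13.1 CPM, and the brown ones 2.99 to 12.4 with a median of 8.54. Orange 3 lay next to the highest brown library, and the mean of g16047 rested on orange 1 (log2 fold change 2.25 ± 0.50, edgeR adjusted p = 0.410). Without orange 1 it was 1.29. The gene g20838 was at 27.4, 33.6 and 50.2 CPM in orange and at 0.997 to 23.8 in brown animals (median 2.69; log2 fold change 2.52 ± 0.60, edgeR adjusted p = 0.590). It was a gene of the caecum, with 0 reads in tube feet of both colours and 1 read in dermis. Small animals spread from 1.04 to 63.8 CPM of g20838, wider than the gap between the colours.

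Among genes lower in orange, g5470 had 1.37, 1.34 and 1.00 CPM in orange animals, 1 read in each, and 3.99 to 22.4 CPM in brown animals with a median of 10.3. The ratio of reads per depth was 0.108 (95% interval 0.0216 to 0.331; log2 fold change -3.02 ± 0.72, edgeR adjusted p = 0.590). The gene g8003 was at 1.37, 2.69 and 1.00 CPM in orange and at 5.18 to 33.0 in brown (median 10.8; -3.01 ± 0.79, adjusted p = 0.655 by edgeR). It had no read in tube feet or dermis of these animals, and in caecum it had none in the 3 small orange animals and 1.09 and 0 CPM in the feeding brown ones. The gene g10940 was at 1.37, 1.34 and 4.02 CPM against 5.98 to 49.9 (median 16.5; -2.91 ± 0.78, adjusted p = 0.655 by edgeR), and the feeding brown animals at 1.09 and 0 CPM fell below the orange ones. For both genes the 6 brown animals compared were thus high and the feeding brown animals low.

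The genes g11876 and g11483 differed by less. For g11876 the orange libraries held 5.38 to 7.03 CPM and the brown ones 12.1 to 44.6 (log2 fold change -1.82 ± 0.55, edgeR adjusted p = 0.818). For g11483 the values were 8.23 to 10.04 and 13.3 to 68.4 (-1.78 ± 0.54, adjusted p = 0.818 by edgeR). The gene g17986 had 0 reads in the 3 orange libraries and 1.99 to 9.33 CPM in the brown ones, at least 4.52-fold lower against a floor of 3 reads over the orange group (edgeR adjusted p = 0.634). It was read in all 3 small orange animals, at 1.04 to 3.99 CPM.

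**Figure D4:**
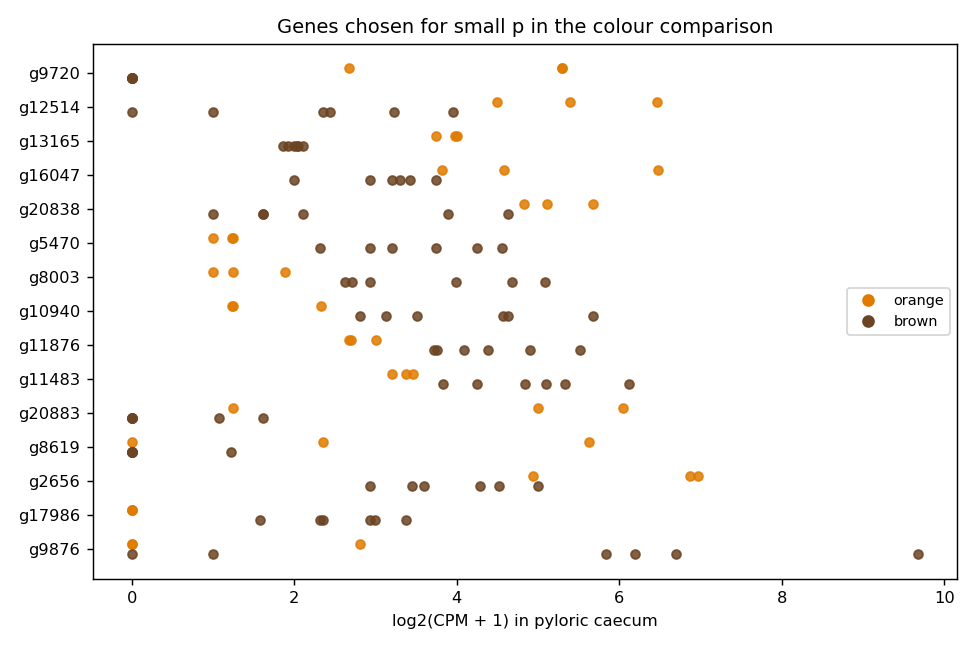
Level of the 15 genes named for small p in the caecum colour comparison, as log2(CPM + 1) on the horizontal axis, with 1 point per library in orange or brown. In g13165 the brown points lie within 2.64 to 3.31 CPM, from 16 reads in all, and the orange points within 12.3 to 15.1 CPM. In g9876 the brown points span 0 to 819 CPM.

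Other genes with small p were high in a few animals of 1 colour. The gene g8619 was at 4.11, 48.4 and 0 CPM in orange 1, 2 and 3, and 1 brown library, brown 5, had a read (1.32 CPM). Its groups overlapped (edgeR adjusted p = 0.393), and the animal orange 2 also carried it in tube feet, at 34.1 CPM, and in dermis, at 22.8. The gene g9876 was at 0, 0 and 6.03 CPM in orange and at 0 to 819 in brown animals with a median of 64.0. The spread of g9876 was between brown animals (log2 fold change -5.75 ± 1.66, edgeR adjusted p = 0.818). Brown 5 had 819 CPM in caecum, 118 in tube feet and 101 in dermis, whereas brown 2 had 0 in all 3 tissues and small orange animals reached 217 CPM in caecum. The gene g2656 was at 125, 29.6 and 116 CPM in orange and at 6.60 to 31.1 in brown animals, so that orange 2 lay inside the brown range (2.38 ± 0.51, adjusted p = 0.410 by edgeR).

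The most abundant genes of the gland did not set the colours apart past the threshold. The gene g13155 alone took 14.9%, 17.9% and 38.4% of the gene reads in orange 1, 2 and 3 and 10.5% to 37.2% in brown animals. Its log2 fold change was 0.02 (95% interval -0.93 to 0.97, edgeR adjusted p = 1.00), and the sign changed in 9 of 23 alternatives, to -1.13 with batch as a covariate. The gene g5054 stood at 33667 to 50983 CPM in orange and 37696 to 48451 in brown (0.04, interval -0.57 to 0.65). For g7444 the log2 fold change was -0.46 (-1.47 to 0.56) and for g18995 it was -0.31 (-1.04 to 0.41). The gene g15 lay higher in orange, at 52106, 25184 and 13526 CPM against 7723 to 15994 in brown animals (median 10556). Orange 3 lay inside the brown range, and the log2 fold change of g15 was 1.36 ± 0.37 (interval 0.59 to 2.13; unadjusted p = 0.00163, edgeR adjusted p = 0.675). In tube feet and dermis the difference of g15 was -0.49 ± 0.44 and -0.71 ± 0.85.

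**Figure D5:**
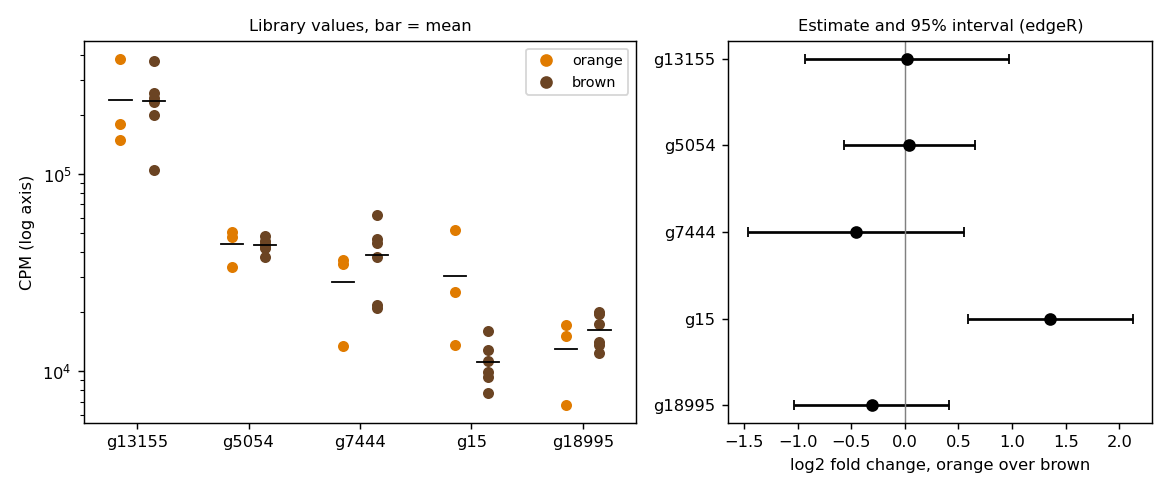
CPM of the 5 most abundant caecum genes in each library on a log axis, with a bar at the group mean (left), and the edgeR log2 fold change, orange over brown, with its 95% interval (right). The intervals of g13155, g5054, g7444 and g18995 include 0, and that of g15 runs from 0.59 to 2.13.

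Genes read in 1 colour only were few and shallow. Of the 21777 genes in the files, 10 had reads in all 3 orange caecum libraries and in no brown one. Another 11 had reads in all 6 brown and in no orange caecum library. Apart from g9720, the mean of the 10 did not exceed 3.38 CPM, and that of the 11 did not exceed 5.49 CPM, a few reads per library. The filter of the test kept 2 of the 10 and 10 of the 11. It asks for a mean of 1 CPM over all 9 libraries, which a gene read in 6 libraries reaches more easily than a gene read in 3. The kept counts thus do not compare the genes themselves. Of the 10 genes, 5 were also read in caecum of at least 1 feeding brown animal and 9 in at least 1 small orange animal. However, 3 of the 10 were read in both feeding brown animals and 0 in all 3 small orange ones. Of the 11 genes, 10 were read in at least 1 feeding brown and 7 in at least 1 small orange animal, 3 in both feeding brown and 4 in all 3 small orange ones. In tube feet, 16 of the 21777 genes had reads in all 3 orange and in no brown library and 7 had the reverse pattern, and g9720 was the sole gene in both tissues. Over all genes tested in tube feet, 283 were higher (1.89%) and 103 lower (0.689%) in orange without overlap. The fraction given above for an unrelated assignment in caecum is larger in tube feet, where 3 orange and 5 brown libraries allow fewer assignments. Of 12426 genes tested in both tissues, 95 in caecum and 246 in tube feet were higher in orange without overlap, and 6 were in both lists (6.32% and 2.44% of them). For lower genes the counts were 136 and 85, with 0 in both. Over all genes tested in caecum, 0.771% were higher and 1.07% lower in orange without overlap. Both tissues came from the same animals, so the lists are not independent, and the number of shared genes was not tested.

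Genes that passed 0.05 for colour in the other tissues did not pass in caecum, apart from g9720. Tube feet gave 4 such genes (0.0267%; 533 at an unadjusted p under 0.05, 3.56%), g9720, g19098, g1027 and g16101, all higher in orange. In caecum g19098 had a log2 fold change of 0.69 ± 0.43 and g16101 of 0.70 ± 0.74 (edgeR adjusted p = 1.00 for both). For g1027 the caecum value of 3.28 ± 1.11 rested on orange 2, at 61.9 CPM, with 0 in orange 1 and orange 3 and 0 to 5.98 CPM in brown animals. Dermis gave no gene at 0.01 (0%; 663 at an unadjusted p under 0.05, 4.92%) and 1 at 0.05 (0.00742%), g16968, with 0 reads in the orange libraries against 21.4 to 50.6 CPM in brown ones (edgeR adjusted p = 0.0196), and 1 read over the 9 caecum libraries.

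No gene tested passed 0.01 for colour in caecum, so the 3 tissue lists and a list raised in wasting animals could hold none. The genes tested were 100 caecum genes, 31 tube feet genes, 21 dermis genes and 71 wasting genes. At an unadjusted edgeR p under 0.05, 5, 2, 0 and 4 of them were higher in orange, and 0, 0, 0 and 1 lower. The 2 tube feet genes include g20883. Over all genes tested, 2.2% were higher and 1.97% lower at that p. The median log2 fold changes of the lists, in the same order, were 0.04, -0.01, 0.48 and -0.11, against -0.02 over the 13230 genes. The wasting list of 77 genes, raised in caecum of the symptomatic pair against 6 asymptomatic animals outside the comparison, held 0.218% to 0.323% of reads in orange and 0.150% to 0.497% in brown caecum. In the symptomatic animals it held 4.17% and 1.48%, shares that this choice of genes fixes.

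The precision of the comparison was limited. The median SE of a log2 fold change was 0.61, and 865 of the 13230 genes (6.54%) had a 95% interval within 1 of 0 on the log2 scale. Among the 680 genes that averaged 100 CPM or more, 184 had an interval within 1 and 622 within 2, and 41 (6.03%) had an unadjusted p under 0.05. For the others, the interval reached past a 2-fold difference in at least 1 direction, so with 3 and 6 animals a p that misses the threshold does not show equal levels.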

How the data were processed

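The authors deposited unnormalized read counts for 21777 genes per library, and the 5 summary lines below them were kept out of library sizes and tests. Per the submitters' processing notes, reads were handled with Trim Galore 0.4.4, TopHat2 2.0.13 and SAMtools 0.1.19, with edgeR named for expression. Per the labels' protocols, libraries were TruSeq RNA libraries of Qiagen column RNA. Neither the counter and its strandedness nor build and annotation are stated: these were not given in the sources used here. Reads shared by near-identical or overlapping genes thus cannot be traced.

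Groups came from the labels. Counts were tested with edgeR 4.0.16 (quasi-likelihood, TMM) in R 4.3.3 on genes averaging 1 CPM or more over the fitted libraries, at a false discovery rate of 0.01 as in the study's design text, and at 0.05. This filter kept at least 99.8% of gene reads. Each SE was derived from the log2 fold change and the F statistic. Interactions came from 1 fit of the 25 libraries of these animals. Alternatives were DESeq2 1.42.0, limma 3.58.1 (voom), other filters and scalings, covariates, subsets and each library left out. Adjusted p-values are by Benjamini-Hochberg over all genes tested. The tests were tried on simulated data. Pairs of the 9 libraries differed by 8.27 to 38.8 in chi-square per degree of freedom, so none was a duplicate. Libraries of 1 animal were paired across tissues by the label of the individual, and their deviations from group means correlated by a median of 0.123 (23 pairs), against -0.0181 between animals (185 pairs).

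Genes were named by rule: the 5 smallest p in each direction among genes with at least 10 CPM and no overlap, the 5 smallest p in each direction, the 5 most abundant genes and the 3 smallest p of each interaction. The genes g9340, g9647, g8700, g12820, g1027, g16101, g19098 and g16968 were picked after seeing their values. The tissue lists and the wasting list were chosen on libraries outside the comparison. The comparison, its members and its lists were chosen with earlier results of these data known. Floors (3 reads over a group) and read intervals cover counting error only.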

Additional observations from a re-analysis of the deposited data

Results flagged for a closer look

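In 7 of 41 groups tested, 1 library lay far from the others of its colour, and the groups share libraries. A chance rate of about 1 in 20 groups holds for values with a normal spread and not for low counts. A gene read in 1 library of a group only is always flagged, as were g8619, g17795 and g16968, so the count of 7 cannot be set against that rate. Among the 6 brown caecum libraries, brown 2 stood out in the read share of the wasting list, at 0.497%, and in g19098, at 305 CPM. Brown 5 stood out in g9876, at 819 CPM, and in g8700, at 63.4 CPM, and its 1.32 CPM of g8619 were 1 read. Brown 6 had the only brown read of g17795 and of g16968, 0.997 CPM each. The colour effect of g20883 differed between caecum and tube feet by 6.34 on the log2 scale in the interaction test (edgeR adjusted p = 0.0187).

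The gene g9720, at 0 in the 6 brown caecum libraries compared, was read in caecum of the brown animals that the comparison did not use. It was at 4.37 and 3.63 CPM in the feeding animals and at 41.7 CPM in the symptomatic animal.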

How the results depend on the processing

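At a false discovery rate of 0.01 the caecum count of 0 became 1 by DESeq2, 4 with no filter on CPM (g9720, g20883, g12514 and g8619), 34 in batch 4 alone and 2 with the share of reads outside genes as a covariate, which was chosen after seeing the data. It was 0 to 1 with each library left out. At 0.05 the count of 2 became 1 by DESeq2, limma-voom or a robust fit, 14 with no filter, 54 in batch 4 alone and 4 with the added covariate. It became 0 with filterByExpr, at a mean of at least 5 CPM, with batch or size class as a covariate, in medium and x-large animals with size class as a covariate, with small and feeding animals included and size class and feeding as covariates, and at a minimum fold of 2, and was 0 to 2 with each library left out. The genes tested were 16846 with no filter, 12984 in batch 4 alone, 6150 with filterByExpr and 8445 at a mean of at least 5 CPM. The causes of these changes in count were not tested. For g13155 the log2 fold change of 0.02 turned to -1.13 with batch or in batch 4, -0.76 with size class, -0.75 in medium and x-large animals with size class and -0.70 with small and feeding animals and both covariates, and ranged from -0.64 to 0.34 with each library left out. For g5054 it turned from 0.04 to -0.032 with batch, -0.048 in batch 4, -0.11 with size class and -0.11 in medium and x-large animals with size class, and ranged from -0.13 to 0.13. The other genes named by rule and tested in caecum kept their direction in each alternative that gave a value, and the genes picked after seeing their values were not run.

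In tube feet the count of 1 became 4 by DESeq2, 0 with filterByExpr (226 at an unadjusted p under 0.05), and 1 to 35 with each library left out, 35 without orange 3 and 3 without brown 1. In dermis it was 0 to 2, with 2 without brown 1. For the interaction with tube feet the count of 0 became 2 with animal as a replicate block and 2 with that block in animals with both tissues only, and 0 to 1 without each orange animal. For that with dermis it was 0 with the block and 1 with the block in animals with both tissues only. These subsets were not fitted without their covariates or block. In batch 4 the orange minus brown share of g13155 was -12.2 percentage points. Limits are 3 orange animals, a single shared batch and brown-only large animals, so colour, batch and size are partly confounded. A gene at a few CPM rests on a few reads.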

Other observations

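A pair of caecum genes, picked after seeing their values, was highest in feeding animals, with some orange animals next. The gene g9340 was at 2801 and 3781 CPM in caecum of the feeding brown animals. In animals labelled as not feeding, it was at 45.2, 2233 and 1320 CPM in orange 1, 2 and 3 and at 6.98 to 559 CPM in brown animals with a median of 189. The gene g9647 was at 1644 and 944 CPM in the feeding animals, at 42.5, 904 and 220 CPM in orange 1, 2 and 3 and at 0.997 to 158 CPM in brown animals. The x-large animals orange 2 and orange 3 thus lay above the brown animals compared for both genes, and orange 1 lay among them. The edgeR log2 fold changes by colour were 2.83 ± 0.80 for g9340 and 2.68 ± 0.75 for g9647 (adjusted p = 0.818 and 0.804), and brown 6, which is x-large too, had the lowest values of both.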
